A study of Drosophila melanogaster with 103 samples.

Results

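The genes that encode the proteins of the cytoplasmic ribosome were examined in 3 Drosophila melanogaster cell lines. They were taken as every protein-coding gene whose symbol starts with RpL or RpS followed by a digit, together with sta, which encodes a protein of the small subunit; genes of the mitochondrial ribosome (mRp symbols) were left out. This gave 89 of the 13946 protein-coding genes on the chromosomes used, 50 for the large (60S) subunit and 39 for the small (40S) subunit. They lie on every large arm, with 18 on 2L, 19 on 2R, 13 on 3L, 23 on 3R, 15 on X and 1 on chromosome 4, and there is none on Y. The genes are short, with a median length of 1333 bp (304 to 4677 bp), against 2161 bp over all protein-coding genes.

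Cytoplasmic ribosomal protein genes are housekeeping genes. Their products join ribosomal RNA in fixed proportions, so nearly every gene is needed in every growing cell, and in flies the loss of 1 copy of many of them gives the Minute phenotype of slow development and thin bristles. Their promoters are known for a TCT initiator in place of the usual initiator and TATA box, and for use of the TBP-related factor Trf2 and the promoter factor M1BP. Several have a second copy, and some of those copies are known in flies for expression in the germ line. Polycomb group (PcG) proteins, by contrast, are known for silencing developmental genes: PRC1 (Pc, Ph, Psc) and PRC2 (E(z), with Pcl) act with the histone marks H2AK118ub1 and H3K27me3, and Pho, Sfmbt and Spps are DNA-binding or linked proteins that help recruit them. Trithorax (Trx), detected here by antibodies named TrxN and TrxC, and the GAGA factor GAF are known for keeping genes active.

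The groups are the D17 line (ML-DmD17-c3), known as a line from a larval haltere disc, and the Kc167 and S2 (S2-DRSC) lines, both known as embryonic and blood-cell-like. No genotype, treatment or time separates the libraries within a line. ChIP-seq was made from 103 libraries: 41 in D17, 21 in Kc167 and 41 in S2, with 2 replicates per antibody and line, grown and fixed in separate flasks, and 1 input per line. There were 21 antibodies in all, of which D17 and S2 each had 20, and the 10 of Kc167 were common to the lines. What was deposited is 1 peak list for each antibody in each line, 50 in number, holding 227654 peaks in all and 1076 to 15159 peaks per list. No list holds values for single replicates or libraries, so no spread between replicates can be given, no test was made and the sequencing depth is unknown.

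A gene was counted as having a peak when at least 1 bp of a peak lay in the gene or within 500 bp of either end. The fold of a peak is the authors' fold enrichment over background. It was used only to rank peaks within 1 list: a percentile of 95 means that the peak stands above 95% of the peaks of its list. Each share of the ribosomal protein genes is set beside the share of all 13946 protein-coding genes with such a peak, which is its background. Of the 89 genes, 69 have another protein-coding gene within 500 bp, so a peak counted for them may belong to the neighbour. Where it matters, values are also given for the 20 ribosomal protein genes with no such neighbour, beside the 19.7% of all genes that have none.

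The lines were first checked against genes that mark blood cells and imaginal discs. Of 8 blood-cell genes, 5 had an H3K27ac peak in D17, 4 in Kc167 and 6 in S2, with srp, Hml, Pxn and ush among them in all 3 lines. Of 8 disc genes, 6 had one in D17, 1 in Kc167 and 3 in S2. Over all genes the shares with H3K27ac were 58.7% in D17, 55.5% in Kc167 and 55.4% in S2. H3K4me3 was at 1 of the 8 disc genes in D17 and in S2, and H3K27me3 at 7 of them in every line. H3K4me2 was at 8 of the 8 disc genes in D17 and 5 in S2, and over all genes at 65.6% and 55.1%. H3K36me3 was at 2 disc genes in D17 and 0 in Kc167 and S2, and over all genes at 59.5%, 56.3% and 55.2%. H3K27ac, H3K4me2 and H3K36me3 were thus at more disc genes in D17 than in the other lines measured. The blood genes did not separate the lines.

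Marks of active genes covered nearly all ribosomal protein genes in each line. H3K27ac, a mark of active promoters and enhancers, had a peak at 83 genes in D17, 81 in Kc167 and 82 in S2, or 93.3%, 91.0% and 92.1%. The share over all genes, given above, was 58.7% in D17 and 55.5% and 55.4% in the other lines. The same 80 genes had it in all 3 lines, against 49.1% of all genes. Among the 20 genes with no neighbour, 80.0% had an H3K27ac peak in D17 and 85.0% had one in each of Kc167 and S2, against 24.1%, 23.9% and 22.7% of all genes with no neighbour.

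The peaks were also high in their lists. The median percentile of the strongest H3K27ac peak was 91.3 at the ribosomal protein genes against 77.7 over all genes with a peak in D17. It was 94.3 against 69.7 in Kc167, and in S2 it was 95.4 against 72.7. A peak in the top 10% of the list stood at 43 ribosomal protein genes in D17, 58 in Kc167 and 64 in S2. Over all genes this held for 14.9% in D17, 10.4% in Kc167 and 11.2% in S2. RpL19, whose product helps bridge the subunits in ribosome structures of other species, had a fold of 9.19 in D17 (percentile 99.8), 11 in Kc167 (99.8) and 14.4 in S2 (99.8). The gene sta had 7.85 (99.2), 10.4 (99.6) and 13.5 (99.8) in the same order of lines. Both genes were near the top of the list in every line.

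**Figure D1:**
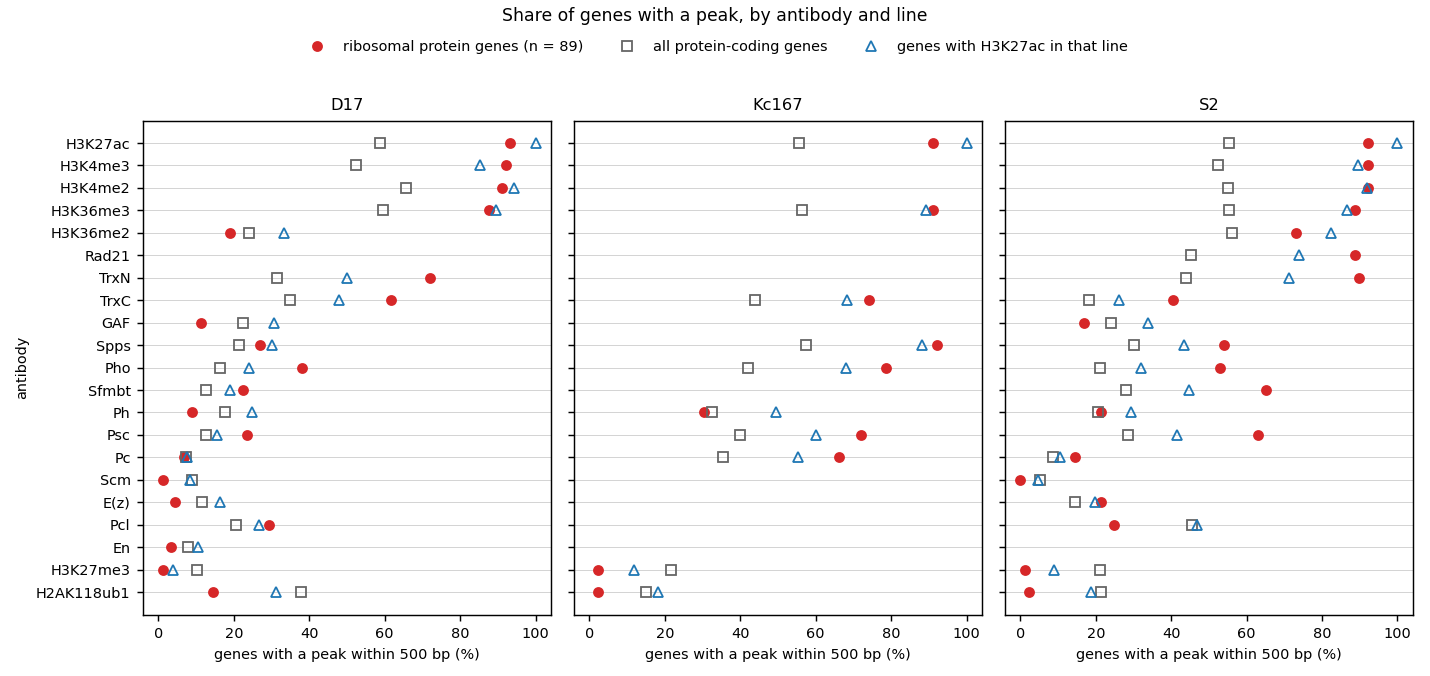
Share of genes with a peak within 500 bp (x axis, percent) for each antibody (y axis) in D17, Kc167 and S2; filled circles are the 89 ribosomal protein genes, squares all 13946 protein-coding genes and triangles the genes with an H3K27ac peak in that line. The circles lie right of the squares for H3K27ac, H3K4me3, H3K4me2, H3K36me3, TrxN, TrxC, Pho, Sfmbt, Psc and Rad21, and left of them for GAF, Scm, H3K27me3 and H2AK118ub1; no error can be given because each list is a single one.

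H3K4me3, the mark of active promoters, was measured in D17 and S2 and had a peak at 82 genes in each, 92.1%, against 52.4% of all genes in D17 and 52.3% in S2. They were the same 82 genes. Over all genes, 50.4% had H3K4me3 in both lines and 3.97% in 1 of them. H3K4me2 had a peak at 81 genes in D17 (91.0%, against 65.6% of all genes) and 82 in S2 (92.1%, against 55.1%). H3K36me3, which marks the bodies of transcribed genes, had one at 78 genes in D17 (87.6%), 81 in Kc167 (91.0%) and 79 in S2 (88.8%), against 59.5%, 56.3% and 55.2% of all genes. H3K27ac, H3K4me3 and H3K36me3 stood together at 76 ribosomal protein genes in D17 and 78 in S2, against 47.4% and 45.5% of all genes. The share of all 89 ribosomal protein genes was also set against only those genes with an H3K27ac peak. In D17 the difference was then -3.22 percentage points for H3K4me2 and -1.71 points for H3K36me3. That share includes ribosomal protein genes without H3K27ac. Among those with H3K27ac in D17, H3K4me2 was at 96.4% against 94.2% and H3K36me3 at 94.0% against 89.4%. Against this background the direction thus turned only where ribosomal protein genes without H3K27ac were counted.

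H3K36me3 peaks are wide, and few had their centre at a ribosomal protein gene: counting only peaks centred within 500 bp gave 21.3% of the genes in D17, 22.5% in Kc167 and 25.8% in S2. Over all genes counted the same way the shares were 22.9% in D17, 21.1% in Kc167 and 22.1% in S2, so the family lay near its background. In D17 the difference was -1.56 points. The percentiles of H3K36me3 were close to those of other genes with a peak, with medians in D17 of 70.1 against 65.3, in Kc167 of 65.7 against 66.1 and in S2 of 66.7 against 63.3. H3K36me2 had a peak at 17 genes in D17 (19.1%, against 24.0% of all genes) and 65 in S2 (73.0%, against 56.0%). The 2 lines thus lay on different sides of their background, but the D17 list held 1620 peaks and the S2 list 2872. Both directions turned under other settings: the difference from all genes was 12.7 points in D17 among genes with no neighbour, and in S2 it was -7.01 points with peak centres and -9.38 points against genes with an H3K27ac peak.

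**Figure D2:**
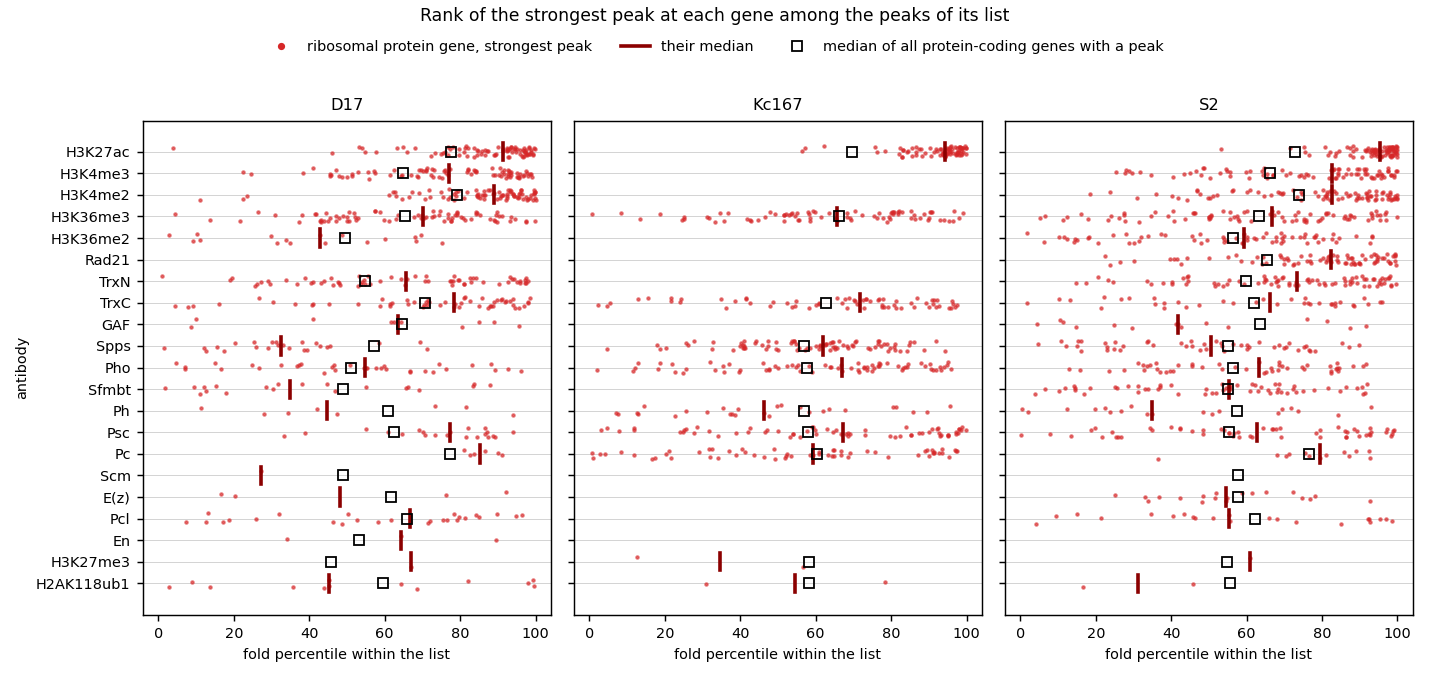
Percentile of the strongest peak at each ribosomal protein gene among all peaks of its list (x axis, by the authors' fold) for each antibody (y axis) and line; points are genes, bars their median and squares the median of all protein-coding genes with a peak. H3K27ac points crowd at the right edge, with medians of 91.3, 94.3 and 95.4 in D17, Kc167 and S2, whereas those of H3K36me3 spread over the list.

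Trithorax and cohesin peaks were frequent at the ribosomal protein genes. TrxN had a peak at 64 genes in D17 (71.9%, against 31.5% of all genes) and 80 in S2 (89.9%, against 44.0%). TrxC had one at 55 genes in D17 (61.8%), 66 in Kc167 (74.2%) and 36 in S2 (40.4%), against 34.8%, 43.8% and 18.3% of all genes. Rad21, a subunit of the cohesin ring that holds sister chromatids and chromatin loops, was measured in S2 only and had a peak at 79 genes (88.8%, against 45.3%). Rad21 and TrxN stood together at 78 genes in S2, against 37.6% of all genes. The 64 genes with TrxN in D17 were all among the 80 of S2. Over all genes, 30.6% had TrxN in both lines and 0.875% in D17 only, so few genes of any kind had it in D17 alone.

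These shares also stood above those of genes with an H3K27ac peak, of which 50.0% had TrxN in D17, 71.3% had TrxN in S2 and 73.9% had Rad21 in S2. For TrxC the difference from genes with an H3K27ac peak was 13.8 points in D17 and 5.98 points in Kc167. For H3K4me3 it was 6.69 points in D17 and 2.61 in S2, and for Spps in Kc167 it was 3.85 points. These differences also count the ribosomal protein genes without H3K27ac. Among those with H3K27ac, TrxC was at 65.1% in D17 and 79.0% in Kc167, against 48.0% and 68.2%. H3K4me3 was at 97.6% in D17 and 100% in S2, against 85.4% and 89.5%. Spps in Kc167 was at 98.8% against 88.3%. With no neighbouring gene, TrxN was at 65.0% of the ribosomal protein genes in D17 and 85.0% in S2, against 12.9% and 21.5% of all genes with no neighbour, and Rad21 was at 80.0% against 24.6%. In the S2 lists, RpS30, whose product is made as a fusion to a ubiquitin-like protein, had the highest TrxN peak of the family, with a fold of 17.9 (percentile 99.6). RpS4 had the highest Rad21 peak, with a fold of 13.1 (99.5). RpS28a had the highest TrxN peak of the family in D17, with a fold of 7.23 (97.9), and RpL37-1 the highest TrxC peak in D17, with 9.11 (98.6). All 15 genes on X had a TrxN peak in D17 and in S2, whereas 38.6% and 45.9% of all genes on X had one; of the 23 genes on 3R, 15 had one in D17 (65.2%) and 18 in S2 (78.3%), against 31.0% and 44.5% of all genes on 3R.

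GAF, which binds GA repeats, was rarer at ribosomal protein genes than at genes in general. It had a peak at 10 genes in D17 (11.2%, against 22.4% of all genes) and 15 in S2 (16.9%, against 24.0%). The 10 genes of D17 all had a GAF peak in S2 as well. Over all genes, 20.3% had GAF in both lines and 2.14% in D17 only. None of the 20 genes with no neighbour had one in either line, against 21.6% of all such genes in D17 and 23.0% in S2. Against only those genes in the length range of the family, of which 12.2% had GAF in D17, the difference was -0.960 points in D17 and 3.07 points in S2. Among genes of like length the lower share of GAF was thus small in D17 and turned in S2. Of the genes with an H3K27ac peak, 30.6% had GAF in D17 and 33.9% in S2. Among ribosomal protein genes with H3K27ac it was at 12.0% and 17.1%, so against this background the share was lower in both lines. The peaks that did occur were partly high: RpL7-like had a fold of 71.2 in D17 (percentile 95.6) and 61.5 in S2 (91.6), RpL10Ab had 50.5 (88.9) and 37.5 (81.4), and RpL4, whose product lines the peptide exit tunnel in other species, had 41.5 (85.0) and 50.6 (87.3). The summit at RpL7-like lay 304 bp outside the gene in D17 and 301 bp in S2, and 3 neighbours (JhI-21, CG34164 and Rab3-GAP) lie within 500 bp of that gene.

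Of the other recruiters, Pho, the fly homologue of YY1, had a peak at 34 genes in D17 (38.2%), 70 in Kc167 (78.7%) and 47 in S2 (52.8%), against 16.4%, 42.1% and 21.0% of all genes. A Pho peak stood in all 3 lines at 30 genes, against 11.5% of all genes. Its partner Sfmbt had one at 20 genes in D17 (22.5%, against 12.5%) and 58 in S2 (65.2%, against 28.0%). Both stood together at 15 genes in D17 and 38 in S2, against 8.38% and 15.8% of all genes. In D17, among genes with no neighbour, 1 of the 20 ribosomal protein genes had Sfmbt, and the difference from all such genes was -5.95 points.

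Spps, an Sp1-like zinc finger protein, had a peak at 24 genes in D17 (27%), 82 in Kc167 (92.1%) and 48 in S2 (53.9%), against 21.3%, 57.4% and 30.0% of all genes. In D17 its peaks were low in the list, with a median percentile of 32.4 against 57.2 over all genes with a peak, and only RpL17 passed 70, with 71.2. The D17 share of Spps lay below its background under several settings, with differences of -7.73 points in the higher-scoring 50% of the list, -1.5 points with no neighbour and -3.15 points against genes with an H3K27ac peak. The Kc167 list held 9661 Spps peaks, against 4710 in D17 and 5287 in S2. With all lists cut to the same length per antibody, 60.7% of the ribosomal protein genes had a Spps peak in Kc167 (32.8% of all genes) and 44.9% a Pho peak (21.3%). The shares in Kc167 thus moved with the length of its lists.

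The PRC1 proteins differed in how many of these genes they were found at. Psc had a peak at 21 genes in D17 (23.6%), 64 in Kc167 (71.9%) and 56 in S2 (62.9%), against 12.5%, 40.0% and 28.5% of all genes. Ph had one at 8 genes in D17 (8.99%), 27 in Kc167 (30.3%) and 19 in S2 (21.3%), against 17.6%, 32.5% and 20.7%. Psc without Ph was found at 19 genes in D17, 41 in Kc167 and 41 in S2, against 6.40%, 15.8% and 15.7% of all genes. Of the genes with an H3K27ac peak, 7.36%, 22.0% and 22.6% had Psc without Ph in these lines. The Psc share thus lay above its background in every line while that of Ph lay below it in D17 and near it in the others.

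The position of Ph against its background turned with several settings. Against genes of like length the difference was 0.192 points in D17 and 8.44 points in Kc167. Of the genes with an H3K27ac peak, 24.9% had Ph in D17, 49.5% in Kc167 and 29.2% in S2. Among ribosomal protein genes with H3K27ac the shares were lower in each line, at 9.64%, 33.3% and 23.2%. For all 89 genes in S2 the difference was -2.34 points with no flank, -2.23 with peak centres and -2.84 in the higher-scoring 50%. It was -7.86 points there against genes with an H3K27ac peak, and -1.03 among genes with no neighbour. The direction for Ph in S2 is therefore not settled by these lists. The direction for Psc held under every setting in all 3 lines.

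A Psc peak stood in all 3 lines at 21 ribosomal protein genes, against 10.5% of all genes, and several were near the top of their lists. RpL30 had a Psc fold of 8.97 in D17 (percentile 88.7), 27.9 in Kc167 (97.8) and 40.4 in S2 (99.1), and RpL37-1, whose product is near the peptide exit in other species, had 4.08 (69.2), 31.9 (98.7) and 36.5 (98.6). RpL23 had a fold of 8.17 (87.5) in D17, 31.3 (98.6) in Kc167 and 38.0 (98.8) in S2. These genes also had H3K27ac in all 3 lines, and RpL37-1 has no neighbour within 500 bp.

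Pc, the chromodomain subunit of PRC1, had a peak at 6 genes in D17 (6.74%), 59 in Kc167 (66.3%) and 13 in S2 (14.6%), against 7.38%, 35.5% and 8.68% of all genes. Pc was found in all 3 lines at 6 genes, RpS23, RpL26, RpL27A and RpL37-1 among them, or 6.74%, against 5.04% of all genes. A further 46 genes, or 51.7%, had Pc in Kc167 only, against 26.6% of all genes. The Kc167 list held 6298 Pc peaks, while the D17 list held 2529 and the S2 list 2387. At equal length 29.2% of the ribosomal protein genes had one in Kc167, against 17.9% of all genes. In D17 the direction against the background turned in the higher-scoring 50% of the list (1.16 points) and against genes of like length (2.21 points). In S2 it turned with no neighbour (-1.39 points).

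At least 1 of Pc, Ph, Psc and Pho was found at 48 genes in D17, 79 in Kc167 and 72 in S2, against 33.1%, 56.8% and 42.2% of all genes. All of them together were found at 0 genes in D17, 21 in Kc167 and 1 in S2, against 2.19%, 18.9% and 3.63%. With no neighbour, at least 1 of them was found at 50.0% of the ribosomal protein genes in D17, 75.0% in Kc167 and 70.0% in S2, against 29.5%, 39.4% and 34.4%. In D17, Kc167 and S2, at least 1 was at 53.9%, 88.8% and 80.9% of the family. Of the genes with an H3K27ac peak, 44.4%, 84.0% and 59.6% had at least 1. All of them together were at 23.6% of the family in Kc167, against 30.4% of genes with an H3K27ac peak. Most genes of the family thus had a peak of some core PcG protein, in Kc167 little more often than genes with H3K27ac. Outside Kc167 hardly any had all of them, but this was also rare over all genes.

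The PRC2 proteins lay on different sides of their background in D17 and S2. E(z), which methylates H3K27, had a peak at 4 genes in D17 (4.49%, against 11.6% of all genes) and 19 in S2 (21.3%, against 14.4%). The highest was at RpL7-like in D17, with a fold of 8.16 (percentile 92.3), and at RpL30 in S2, with 5.66 (92.8). Against genes of like length, of which 4.87% had E(z) in D17, the difference there was -0.374 points, and with no neighbour that in S2 turned to -2.61 points. Pcl had a peak at 26 genes in D17 (29.2%, against 20.5%) and 22 in S2 (24.7%, against 45.4%). The S2 list of Pcl was the longest of all, with 15159 peaks, against 4065 in D17. Cut to the D17 length, it had 12.4% of the ribosomal protein genes and 18.3% of all genes. RpS26, whose product lies at the mRNA exit in other species, had the highest Pcl peak of the family in both lines, with a fold of 12.8 in D17 (96.5) and 7.05 in S2 (98.5), and its summit lay inside the gene in both.

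Scm, which is linked to both PcG complexes, had a peak at 1 gene in D17 (1.12%, against 8.91%) and at 0 in S2, against 5.12%. The gene was RpS5b, with a fold of 1.59 at the percentile 27.2. Engrailed (En), a homeodomain protein measured in D17 only, had a peak at 3 genes, RpS4 and RpS9 among them, or 3.37%, against 7.83% of all genes. Against genes of like length the difference for En turned to 0.197 points. Both proteins were thus rare in the family.

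Peaks of the repressive marks were rare. H3K27me3 had a peak within 500 bp of 1 gene in D17 (1.12%), 2 in Kc167 (2.25%) and 1 in S2 (1.12%), against 10.1%, 21.7% and 21.2% of all genes. None of these peaks overlapped the body of a ribosomal protein gene. The domain beside RpS23 ended 359 bp from the gene in D17 and 274 bp in Kc167, where it ran over chr2R:14195695-14214822 (dm6), while the gene lies at chr2R:14215096-14216627. The domain beside RpS30 in Kc167 ended 462 bp away and that beside RpL23A in S2 446 bp away. With a reach of 1000 bp the shares were 4.49% in D17, 6.74% in Kc167 and 4.49% in S2, against 11.1%, 24.5% and 23.7% of all genes.

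RpS23, whose product lies at the decoding centre in other species, had active marks beside that domain. In S2 the H3K27me3 list has no peak there but skips a number. Its H3K27ac peak had a fold of 6.58 in D17 (percentile 97.8), 11.6 in Kc167 (99.9) and 11 in S2 (99.1), each with its summit inside the gene. A Pc peak within 500 bp of RpS23 had folds of 5.44 (91.0), 9.49 (97.1) and 3.17 (75.6) in these lines, with its summit 2468 bp, 2097 bp and 2438 bp from the gene. RpS23 was thus a gene with an acetylated body next to a Pc peak centred outside it.

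H2AK118ub1, the mark set by PRC1, had a peak at 13 genes in D17 (14.6%), 2 in Kc167 (2.25%) and 2 in S2 (2.25%), against 37.8%, 14.9% and 21.3% of all genes. The peak lay over the gene body at 11 of the D17 genes, 1 of those of Kc167 and both of those of S2, and it covered the whole body of 7, 1 and 1. With lists of equal length the D17 share was 10.1% against 15.3% of all genes, a difference of -5.17 points in place of -23.1, and by peak centre it was 0 in every line. RpL22 had the highest in D17, with a fold of 2.44 (percentile 99.5) over 57.7% of the gene, and RpS28-like had 2.17 (98.0) over all of it. RpL22-like lay inside a D17 domain of 120 kb (chr2R:23174979-23294939). RpS14a and RpS14b, which stand side by side on X, shared 1 domain of 24.3 kb. RpL22, RpS14a and RpS14b also had H3K27ac and H3K4me3 peaks in D17.

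**Figure D3:**
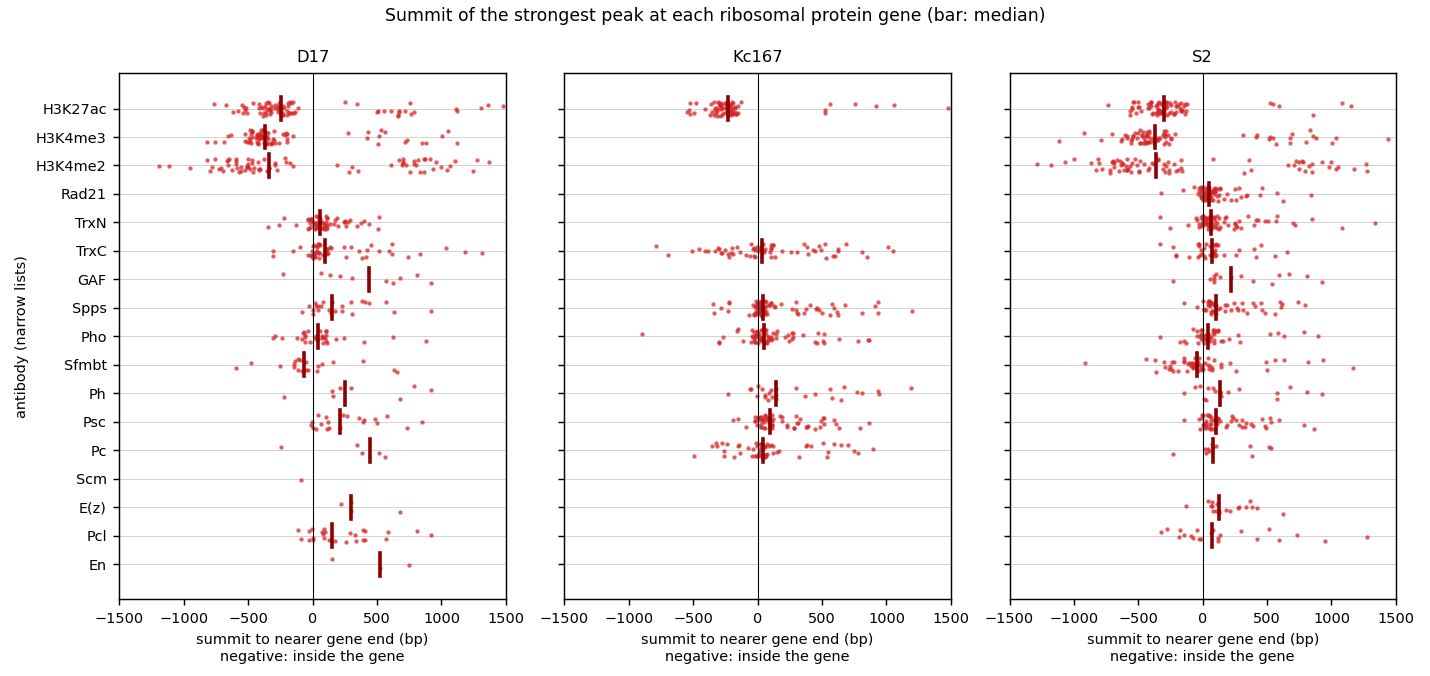
Distance from the summit of the strongest peak to the nearer end of each ribosomal protein gene (x axis, bp; negative inside the gene) for the antibodies with narrow peaks (y axis) in D17, Kc167 and S2; points are genes and bars their median where more than 2 genes had a peak. Of all summits, 1674 are plotted and 35 lie beyond 1500 bp; those of Rad21, TrxN, Pho and Psc gather at a gene end and those of H3K27ac and H3K4me3 inside the gene.

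The summits of several factors lay close to an end of the gene, but the gene table used gives no strand, so start and stop were not told apart. The median distance to the nearer end was 51.0 bp for Rad21 in S2, 88.0 bp in D17 and 68.5 bp in S2 for TrxN, and 80.5 bp in D17, 82.5 bp in Kc167 and 82.0 bp in S2 for Pho. Psc summits lay at 215 bp in D17, 109 bp in Kc167 and 108 bp in S2. At genes in the length range of the family the medians were 95.0 bp for Rad21 and 100 bp and 101 bp for TrxN. For Pho they were 291 bp, 154 bp and 186 bp and for Psc 218 bp, 150 bp and 168 bp, in the same order of lines. In D17, where few genes had them, GAF, Pc, E(z) and En lay further off, with medians of 437 bp, 448 bp, 298 bp and 521 bp. Genes in that length range had medians of 382 bp, 360 bp, 312 bp and 446 bp, so these factors lay further off there too. Of the Pho summits, 85.3% in D17, 72.9% in Kc167 and 83.0% in S2 lay within 250 bp of an end, against 45.9%, 63.3% and 60.6% at genes in the same length range. TrxN summits lay this close to an end at 82.8% of its D17 genes, where other genes of like length gave 71.4%. The S2 values for TrxN were 73.8% and 70.4%. Psc had 57.1% for D17 (other genes of like length 54.6%), while Kc167 gave 68.8% (64.7%) and S2 gave 71.4% (63.1%). The gap was thus small for TrxN in S2 and for Psc in D17 and Kc167. It was wider for TrxN in D17 and for Psc in S2. The median for H3K27ac was 363 bp in D17, 277 bp in Kc167 and 336 bp in S2. That for H3K4me3 was 424 bp in D17 and 473 bp in S2, with 76.8% and 72.0% of the summits inside the gene. Sfmbt was the factor whose summits lay mostly inside, at 65.0% of the genes in D17 and 67.2% in S2, against 40.2% and 33.5% at genes in the same length range.

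Where 2 factors had a peak at the same gene, their summits were often at 1 end. TrxN and Rad21 in S2 were at the same end in 75 of the 78 genes that had both, with a median of 20 bp between the summits. For TrxN and Psc this was 47 of 55 genes in S2 and 17 of 19 in D17, with medians of 22.0 bp and 27 bp. TrxN and Pho lay a median of 17 bp apart in S2 and 42.0 bp in D17. The same-end counts and median distances were not worked out for all genes, so they have no background. Summits within 100 bp of each other were found for TrxN and Rad21 at 82.1% of the ribosomal protein genes with both, against 74.1% of all genes with both, and for TrxN and Psc in S2 at 74.5% against 72.6%. In D17 the shares were 73.7% against 59.1% for TrxN and Psc and 68.8% against 46.9% for TrxN and Pho. For TrxN and Spps in S2 they were 76.6% against 48.5%. The gap to other genes with both peaks was thus small for TrxN and Psc in S2 and wider for the pairs of D17 and for Spps.

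**Figure D4:**
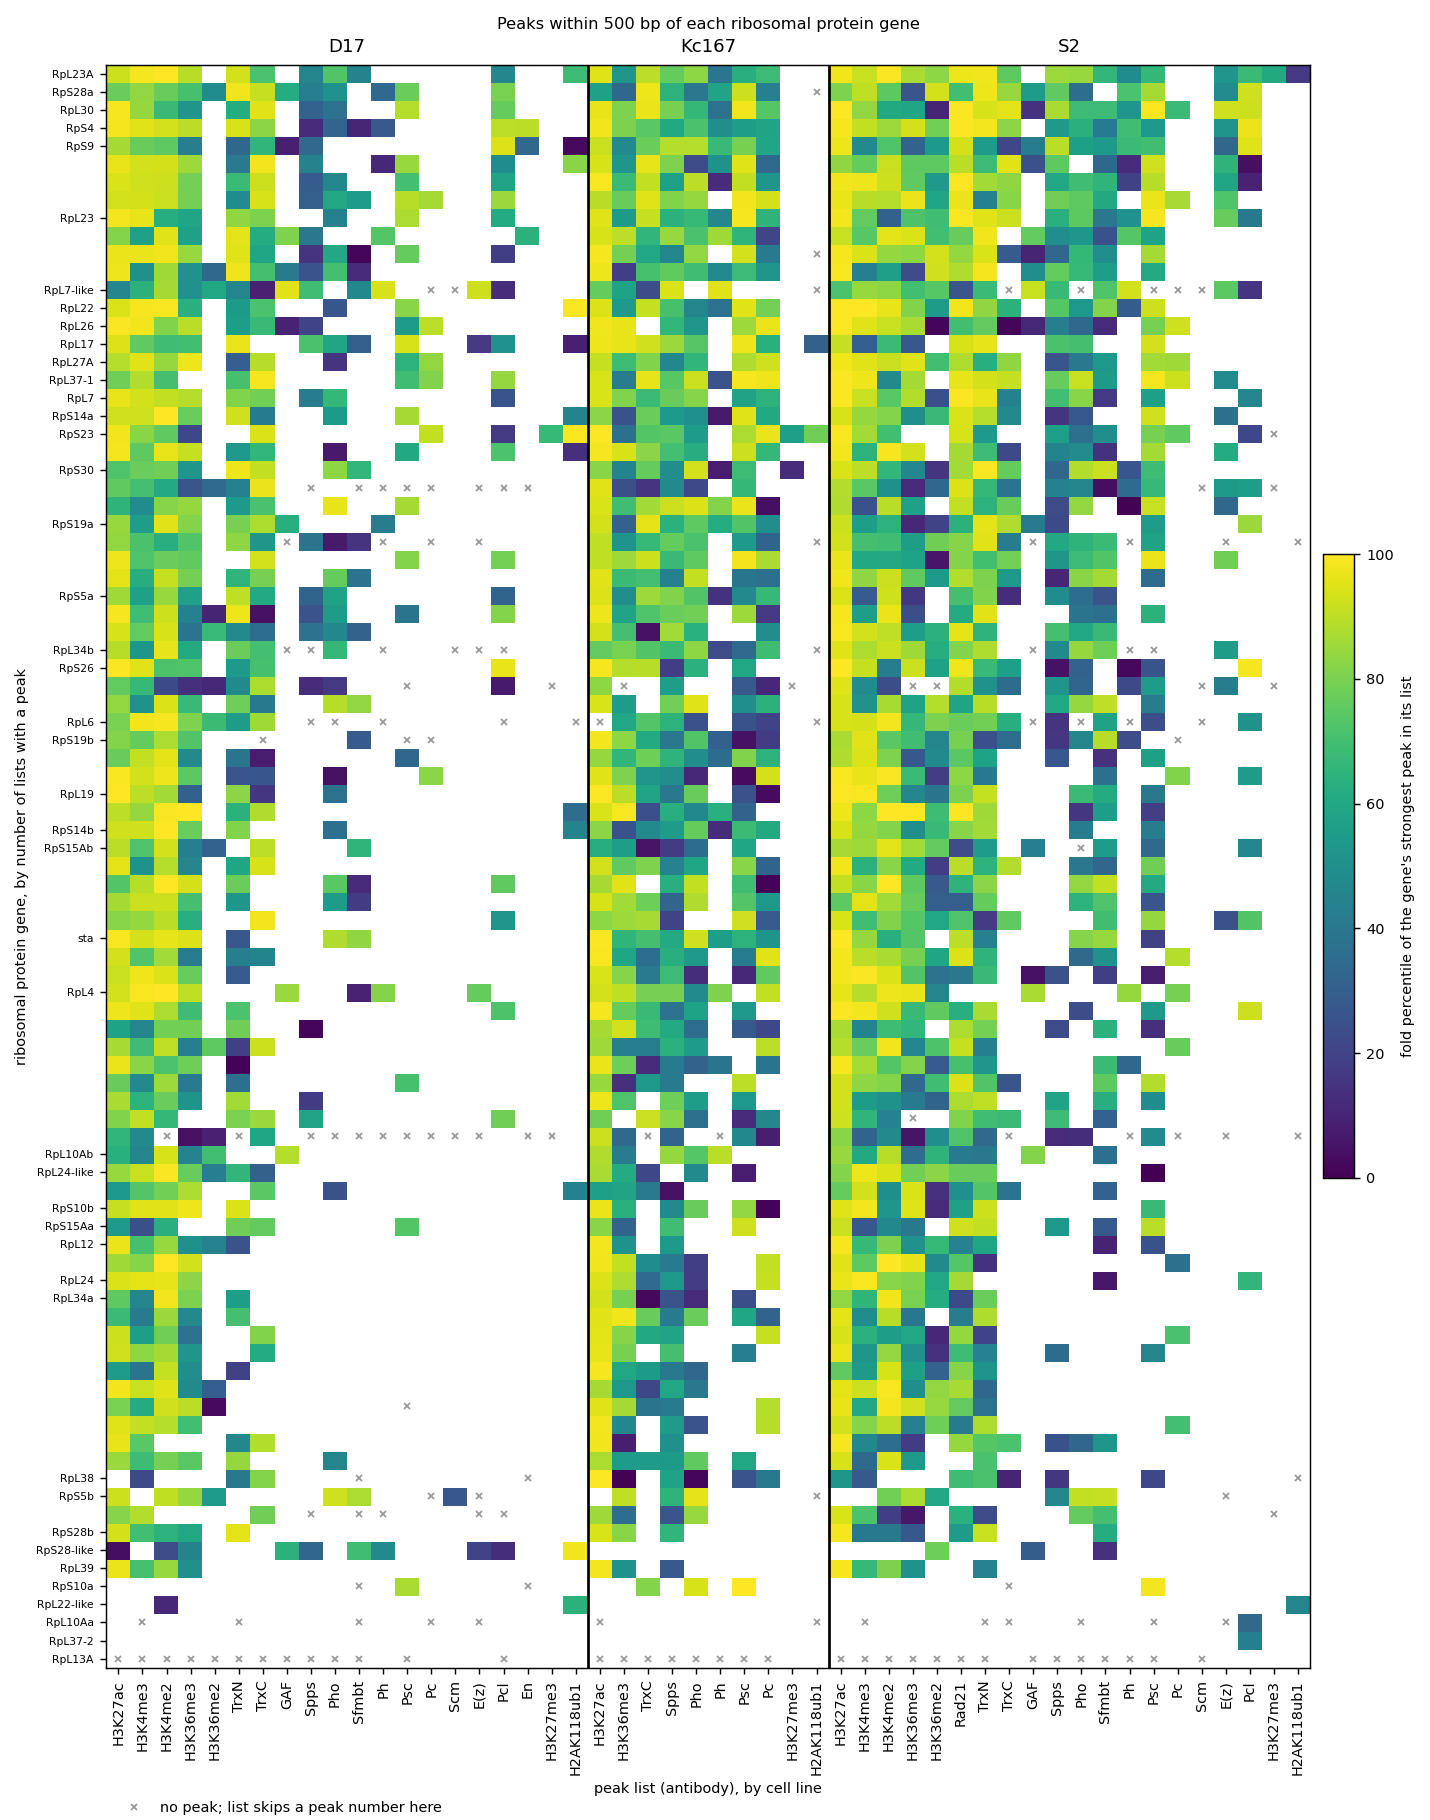
Fold percentile (colour, 0 to 100) of the strongest peak at each of the 89 ribosomal protein genes (rows, ordered by the number of lists with a peak, with the genes described in the text labelled) in the 50 peak lists (columns, by line); white cells have no peak and crosses mark cells with no peak where the list skips a peak number. RpL23A stands at the top and RpL13A, with no peak in any list, at the bottom; the leftmost columns of each line, the active marks, are filled for nearly all genes.

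The genes differed in how many lists had a peak at them. The median was 7 of 20 lists in D17 (0 to 13), 6.00 of 10 in Kc167 (0 to 9) and 10.0 of 20 in S2 (0 to 17), against 5.00, 4.00 and 6.00 over all genes. In D17, RpL7-like and RpS28a had the most, with 13. In Kc167, RpS23 had 9. In S2, RpL23A and RpL30 had 17 each. RpL30 had every mark and factor in S2 apart from Scm, H3K27me3 and H2AK118ub1, with H3K27ac at a fold of 13.2 (percentile 99.7), Rad21 at 12.5 (99.3) and TrxN at 9.93 (93.8). The summits of these factors at RpL30 lay 49 bp outside the gene for Rad21, 60 bp for TrxN, 58 bp for TrxC, 61 bp for Psc and 45 bp for E(z).

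A small number of genes lacked H3K27ac. In D17 they were RpL38, RpL37-2, RpL22-like, RpL13A, RpL10Aa and RpS10a. In Kc167 they were RpS28-like, RpL37-2, RpL22-like, RpL13A, RpS5b, RpL10Aa, RpS10a and RpL6, and in S2 the same genes without RpL6. RpL37-2, RpL22-like, RpL13A, RpL10Aa and RpS10a lacked it in every line. The lack cannot be read for each of them, because peak numbers are skipped in the lists where some peaks may be missing. RpL13A had 0 peaks in the 50 lists, but 35 of them skip a number at that gene, and RpL10Aa had 1 peak with skips in 13 lists. RpL37-2 had no skip in any list. In the H3K27ac list of Kc167, RpL6 lies at a skipped number, and it had H3K27ac at a fold of 3.81 in D17 (percentile 79.8) and 6.33 in S2 (93.9).

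RpL38 differed between lines: it had no H3K27ac peak in D17, but a fold of 12.0 in Kc167 (percentile 99.9) and 2.79 in S2 (53.1). The D17 list of H3K27ac skips no number at RpL38, but 2 other D17 lists do, so peaks there may be missing. It kept an H3K4me3 peak in D17, at a fold of 5.80 (22.5), and in S2, at 6.59 (28.0). TrxN at RpL38 had a fold of 2.42 in D17 (40.4) and 5.36 in S2 (71.1). It was the single gene of the family that lacked H3K27ac in D17 and had it in the other lines.

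**Figure D5:**
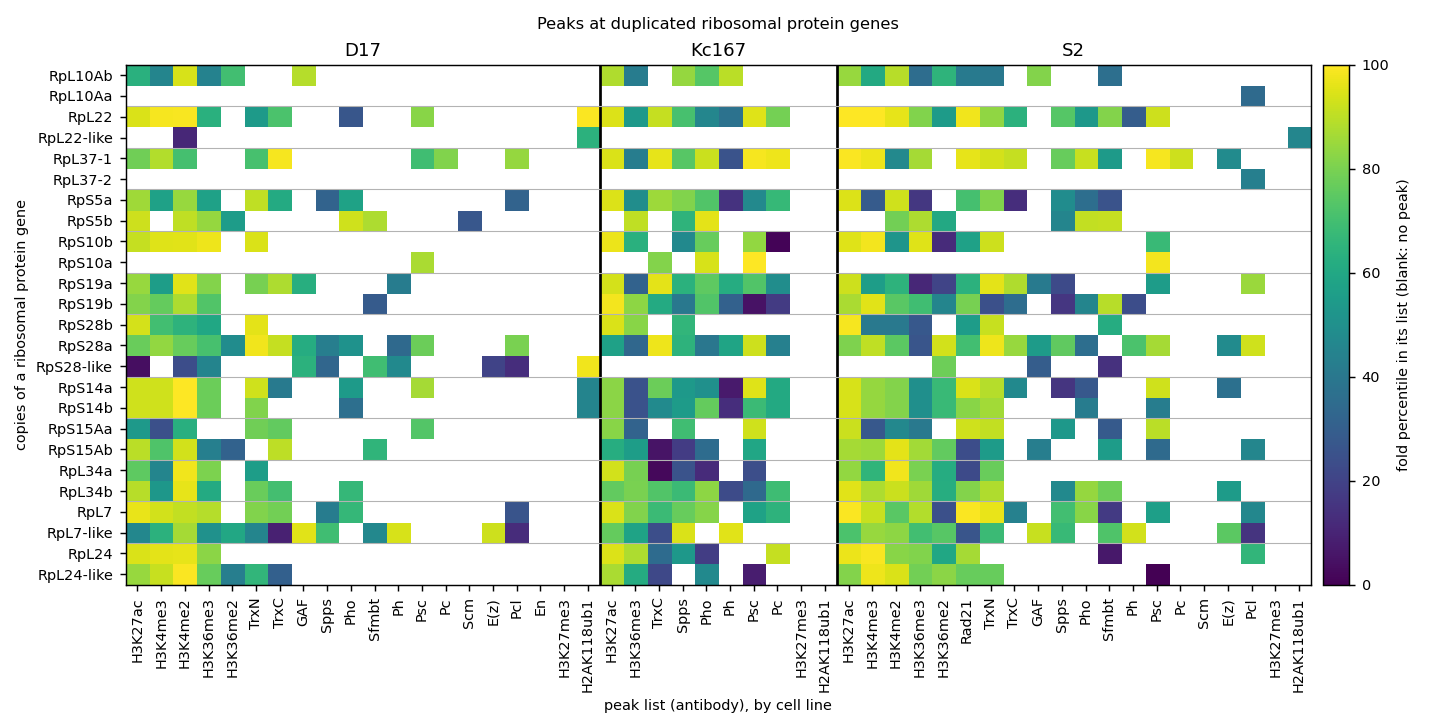
Fold percentile (colour, 0 to 100; blank where there is no peak) at duplicated ribosomal protein genes (rows, grouped by protein) in the 50 peak lists (columns, by line). RpL22, RpL37-1 and RpL10Ab have peaks of active marks in all 3 lines whereas RpL22-like, RpL37-2 and RpL10Aa have nearly none. RpS5b has Pho at higher percentiles than RpS5a in each line and has no called peak of TrxN, TrxC or H3K4me3, which RpS5a has.

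Most genes without H3K27ac were the second copy of a protein whose other copy carried it. RpL22-like, known in flies as the germ-line copy, had 2 lists with a peak in D17, 0 in Kc167 and 1 in S2, against 9, 8 and 13 for RpL22. RpL22 had H3K27ac at folds of 5.43 (percentile 94.5), 7.46 (94.7) and 13.9 (99.8) in D17, Kc167 and S2, and Psc at 6.55 (82.2), 22.0 (95.2) and 21.3 (92.5). RpL22-like had only H3K4me2 in D17, at 1.64 (11), and H2AK118ub1 in D17, at 1.66 (64.2), and in S2, at 1.57 (45.9). RpL10Aa had 0, 0 and 1 lists, against 6, 5 and 9 for RpL10Ab, whose product forms the L1 stalk in other species.

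The pair RpL37-2 and RpL37-1, chosen after its values were seen, showed the same split: in D17, Kc167 and S2, RpL37-2 had 0, 0 and 1 lists and RpL37-1 had 8, 8 and 13. The only peak at RpL37-2 was Pcl in S2, with a fold of 1.67 (percentile 43.3). The H3K27ac folds at RpL37-1 were 3.70 (78.2), 7.38 (94.4) and 12.0 (99.5) in the same order of lines. Neither of the 2 genes has a neighbour within 500 bp.

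RpS10a had no called peak of an active mark in any line, while RpS10b had H3K27ac at folds of 4.89 (percentile 91.3), 8.41 (97.2) and 6.79 (95.0) in D17, Kc167 and S2. Of the lists without a peak at RpS10a, 2 in D17 and 1 in S2 skip a number there, so peaks may be missing. Yet RpS10a had Psc peaks high in the lists, with a fold of 8.08 (87.2) in D17, of 45.6 (99.8) in Kc167 and of 35.4 (98.4) in S2. Their summits lay 852 bp, 866 bp and 866 bp outside the gene, and tau lies within 500 bp of RpS10a. Pho in Kc167 had a fold of 12.1 (94.0) at 857 bp and TrxC 3.05 (81.4) at 848 bp. These peaks thus reached RpS10a only with their flank.

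RpS5b, known in flies as an ovary-enriched copy, had a Pho peak in every line, with folds of 8.92 (percentile 92.7) in D17, 17.2 (96.0) in Kc167 and 11 (90.9) in S2. The summits lay 28 bp, 42 bp and 38 bp outside the gene. The Pho peak at RpS5a had folds of 2.24 (57.6), 3.09 (72.8) and 2.06 (36.1). Sfmbt at RpS5b had 5.82 (87.8) in D17 and 6.17 (91.4) in S2. RpS5b thus had the higher Pho rank of the pair in each line, while TrxN, TrxC and H3K4me3 were found at RpS5a alone. Of the lists without a peak at RpS5b, 2 in D17, 1 in Kc167 and 1 in S2 skip a number there, so peaks may be missing. The H3K27ac peak counted for RpS5b in D17 had its summit 2268 bp away, and VhaPPA1-2 lies within 500 bp.

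The 3 RpS28 genes also differed. RpS28a had 13, 8 and 15 lists in D17, Kc167 and S2, RpS28b had 5, 3 and 7, and RpS28-like had 10, 0 and 3. RpS28a, the shortest gene of the family at 304 bp, has Mgat2 and Axn within 500 bp and had its H3K27ac summit 610 bp, 561 bp and 547 bp outside. RpS28-like had GAF at a fold of 16.0 in D17 (percentile 64.4) and 4.06 in S2 (29.6), and Ph at 3.65 (47.3) in D17. Its H3K27ac peak in D17 was the lowest of the family, with a fold of 1.54 (3.86), and CG3769 and numb lie within 500 bp.

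The other copies shared H3K27ac in each line but differed in part of their lists. RpS14a and RpS14b shared 7, 8 and 9 lists in D17, Kc167 and S2, a further 2, 0 and 3 had a peak at RpS14a alone, and no list had one at RpS14b alone. As the genes are neighbours, single peaks can count for both, as also for RpL12 and RpL39. RpS19a and RpS19b shared 4, 8 and 9 lists, with 4, 0 and 3 at RpS19a alone and 1, 0 and 3 at RpS19b alone. RpL34a and RpL34b shared 5, 6 and 7, and 2, 2 and 4 were at RpL34b alone. RpS15Aa and RpS15Ab shared 4, 4 and 8, with 2, 0 and 1 at RpS15Aa alone and 3, 2 and 3 at RpS15Ab alone. RpL7-like and RpL24-like, whose yeast relatives act in ribosome assembly, shared H3K27ac and H3K36me3 with RpL7 and RpL24 in every line. RpL7-like alone had 5, 1 and 3 lists, GAF in D17 and S2 and Ph in each line among them, while RpL7 alone had 1, 3 and 3. The 3 of S2 were TrxC, Pho and Psc, whose lists skip a number at RpL7-like.

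Other genes of translation gave shares near those of the ribosomal protein genes for H3K27ac, TrxN and Psc, and higher ones for Ph and GAF. Of 26 genes for the ribosomal stalk, Rack1, elongation, initiation and ribosome assembly, 88.5% had H3K27ac in D17, 96.2% in Kc167 and 92.3% in S2. TrxN was at 76.9% of them in D17 and 92.3% in S2, and Rad21 at 25 of the 26 in S2. Pho was at 42.3%, 88.5% and 46.2% of them in D17, Kc167 and S2, and Psc at 23.1%, 80.8% and 65.4%. For all of these the background is that given above. Ph was at 30.8%, 61.5% and 34.6% of the translation genes, against 8.99%, 30.3% and 21.3% of the ribosomal protein genes and 17.6%, 32.5% and 20.7% of all genes. GAF was at 26.9% of them in D17 and in S2, against 11.2% and 16.9% of the ribosomal protein genes and 22.4% and 24.0% of all genes. H3K27me3 was at none in D17, at eEF1alpha2 and eEF1beta in Kc167 and at eEF1alpha2 in S2. Trf2, M1BP, Dref and Myc, regulators known for acting on ribosomal protein genes or on growth, each had an H3K27ac peak in all 3 lines.

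The subunits were alike in most lists. In D17, Kc167 and S2, H3K27ac was at 45, 45 and 46 of the 50 genes of the 60S subunit, and at 38, 36 and 36 of the 39 genes of the 40S subunit. TrxN was at 35 and 44 of the 60S genes in D17 and S2, and at 29 and 36 of the 40S genes. Psc stood at 30 of the 60S genes and 34 of the 40S genes in Kc167, and at 27 and 29 in S2, where Sfmbt stood at 29 and 29. In D17 the Psc counts were 11 and 10. No test of these differences was made.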

How the data were processed

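The members, gene lists and settings were chosen with earlier results of these data known. Per the labels, fixed chromatin of 3 lines was immunoprecipitated; per the submitters' processing notes, the authors used Trim Galore 0.6.4, Bowtie2 2.3.5.1, SAMtools 1.13, MACS2 2.2.6 and bedtools 2.29.2 on BDGP6 (dm6). How replicates and input entered each list is not given in the sources used here. Each deposited peak holds a score, a ratio (fold enrichment) and a −log10 q-value from the authors' peak caller; 39 lists are narrow and 11 broad. Peak numbers skipped in a list mark places where a peak may be missing, and genes there were counted separately.

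Genes came from RefSeq's table of Release 6 plus ISO1 MT, which has no strand; dm6 has the same coordinates. Peaks were joined to genes within 500 bp in Python 3.11.15 with pandas 2.3.3. The join was tested on simulated data (200 of 200 planted genes found) and gave every gene that bedtools 2.31.1 gave in 50 of 50 lists. Named genes were those without H3K27ac, those with H3K27me3 or H2AK118ub1, the members with most and fewest lists, the highest fold per protein list, and copies whose lists differ; others shown are further examples chosen after their values were seen. Percentiles are by fold within a list. No sequence was read: the search for promoter letters and the setting by annotated start were not run. Values of some single genes are not reported here.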

Additional observations from a re-analysis of the deposited data

How the results depend on the processing

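No paired analysis was possible because each list is a single one per antibody and line with no replicate values. The 22 shares of ribosomal protein genes for H3K27ac, H3K4me3, H3K36me3, TrxN, TrxC, Rad21, GAF, H3K27me3 and any of Pc, Ph, Psc and Pho gave 156 values under other settings, of which 131 stayed within 1.5 times and 25 moved. The other 31 shares gave 217 values, of which 167 stayed and 50 moved. Among those that moved, Pc in Kc167 was at 29.2% with lists of equal length, against 66.3% with the full list. The shares of all genes there were 17.9% and 35.5%. Peak centres gave H3K36me3 in D17, Kc167 and S2 at 21.3%, 22.5% and 25.8%, against 22.9%, 21.1% and 22.1% of all genes. The higher-scoring 50% of each list gave TrxN at 47.2% in D17, TrxC at 24.7% in S2, GAF at 6.74% in S2 and H3K27me3 at 1.12% in Kc167. All genes under this setting gave 17.2%, 11.6%, 15.3% and 12.4% in the same order. Lists of equal length gave TrxC at 48.3% in Kc167, against 23.2% of all genes. GAF was at 6.74% in D17 and 11.2% in S2 with no flank, against 18.8% and 20.1% of all genes. By peak centre it was at 6.74% in D17, against 18.8%. With no neighbour it was at 0% in both lines, against 21.6% in D17 and 23.0% in S2. H3K27me3 was at 0% in each line with no flank or by peak centre, with 1000 bp at 4.49%, 6.74% and 4.49% in D17, Kc167 and S2, and with no neighbour at 5.00%, 5.00% and 0%.

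The sign of the difference between the ribosomal protein genes and all genes held in 424 of 447 comparisons and turned in 23, over 14 lists. In percentage points, genes with an H3K27ac peak as background gave -3.22 for H3K4me2, -1.71 for H3K36me3 and -3.15 for Spps in D17, and -9.38 for H3K36me2 and -7.86 for Ph in S2. These values count ribosomal protein genes without H3K27ac too. Among those with H3K27ac, the shares of H3K4me2 and H3K36me3 in D17 lay above that background, and the other shares stayed below it. Genes of like length gave 0.192 for Ph, 2.21 for Pc and 0.197 for En in D17, 8.44 for Ph in Kc167 and 3.07 for GAF in S2. With no neighbour the values were 12.7 for H3K36me2, -1.50 for Spps and -5.95 for Sfmbt in D17, and -1.03 for Ph, -1.39 for Pc and -2.61 for E(z) in S2. Peak centres gave -1.56 for H3K36me3 in D17, and -7.01 for H3K36me2 and -2.23 for Ph in S2. The higher-scoring 50% gave -7.73 for Spps and 1.16 for Pc in D17 and -2.84 for Ph in S2, and no flank gave -2.34 for Ph in S2. The cause was not tested. Leaving out a replicate could not be run, since no replicate values are held, and the annotated start was not used for want of strand. Depth and pooling are unknown, so a gene without a peak is one with no peak called, not one shown to lack the protein.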
